A study of Homo sapiens with 12 samples.

Results

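The splicing factors described here are the SR proteins and the heterogeneous nuclear ribonucleoproteins (hnRNPs), RNA-binding proteins that help to decide which exons a messenger RNA keeps. Members were taken by gene symbol from the 12 count tables. These were the numbered SRSF genes, the genes whose symbol starts with HNRNP, and SRRM1, SRRM2, TRA2A, TRA2B, NOVA1, NOVA2, PTBP1 and PTBP2. Of 169 symbols that matched, 125 pseudogenes and 1 antisense gene were left out. This gave 43 genes of 55765 in the tables, namely 12 SR proteins, 4 SR-like factors (SRRM1, SRRM2, TRA2A and TRA2B), 23 hnRNPs, both NOVA genes and both PTBP genes. The rule itself uses symbols and no measured value.

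SR proteins carry RNA recognition motifs and a domain rich in arginine and serine. They bind enhancer sequences in exons, recruit the spliceosome to nearby splice sites, and are switched by phosphorylation. hnRNPs coat nascent transcripts and often act in the opposite sense, by masking splice sites or looping exons out, and they also take part in RNA export, stability and translation. In the nervous system NOVA1 and NOVA2 set neuronal exon choice, and developing neurons replace PTBP1 with its paralogue PTBP2, which changes the splicing of many neuronal transcripts.

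RNA was taken from SH-SY5Y, a human noradrenergic neuroblastoma line subcloned from SK-N-SH that takes on neuron-like features under all-trans retinoic acid (ATRA). All 12 cultures received ATRA for 7 days, the controls included, so no group shows undifferentiated cells. In the co-treatment experiment, 3 cultures also received hydrogen peroxide (H2O2), a source of oxidative stress, during those 7 days and 3 received ATRA alone. In the pre-treatment experiment, H2O2 was applied to 3 cultures for 72 h and ATRA followed, while 3 cultures were never given H2O2. The H2O2 dose is 10 mM in the deposited design text and 10 μM in the methods, and which holds was not settled. The samples come from a single cell line, and the labels do not say how the replicates were separated, so the p-values measure the spread between these samples only.

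Reads counted on genes ranged from 27576276 to 98287391 per library. Of 8 noradrenergic markers, which summed to 2400 to 2920 CPM in the co-treatment controls and 1530 to 2140 CPM with H2O2, HAND2 lay between 306 and 564 CPM (counts scaled to library size) and the neuronal tubulin TUBB3 between 486 and 985 CPM, while TH, the enzyme that starts catecholamine synthesis, reached no more than 0.263 CPM. The summed level of 5 immune markers was at most 0.725 CPM and that of 3 endothelial markers at most 0.503 CPM, with AIF1 at 0 in every library. Of 6 mesenchymal markers, which summed to 176 to 289 CPM, VIM was higher with H2O2 in the co-treatment (log2 fold change 1.16) and in the pre-treatment (2.42 with 6 libraries and 2.65 without control replicate 3). COL3A1 was also higher in the pre-treatment with 6 libraries (2.44), while PDGFRB was lower without control replicate 3 (-0.70). In the co-treatment 2 of 5 tested mesenchymal markers and 0 of 7 tested noradrenergic markers had a fold change above 0, with 0 of the latter called and 4 at an unadjusted p below 0.05. In the pre-treatment the noradrenergic markers summed to 1760 to 3010 CPM in the controls and 1270 to 1950 CPM after H2O2. With 6 libraries 0 of 7 were called. Without control replicate 3, 1 of 7 was called higher and 3 lower, and of 7 neuronal markers 2 were called higher and 1 lower. The part of these marker changes in the results was not tested.

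Replicates 1 and 2 of the pre-treatment controls stood apart from the other 10 libraries. Per read counted on a gene they held 0.8 and 0.83 reads that fell outside annotated exons, against 0.2 to 0.462 in the other 10. Small structured RNAs took 1.7% and 2.98% of their counts, against 5.16% to 17.7% elsewhere. Control replicate 3 of the same group had the lowest value of the first measure (0.2) and the highest of the second (17.7%). The pre-treatment was tested with all 6 libraries and without control replicate 3, which earlier work on these counts had found apart from its group. The fit without it does not correct for the controls that stood apart from the other 10, but rests on them. With replicates 1 and 2 as the only controls, their library properties and the absence of H2O2 cannot be told apart.

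The members together took 0.69% to 0.873% of the counts in each library. SR and SR-like genes made up 0.199% to 0.27% and hnRNPs 0.462% to 0.583%. Divided by the length of their annotated exons, and averaged over the 12 libraries, the highest levels were those of HNRNPK (111 CPM per kb), HNRNPA1 (100.4), HNRNPF (79.1), SRSF2 (59.1) and HNRNPAB (58.8). HNRNPK binds C-rich RNA, HNRNPA1 is an abundant repressor of exons, HNRNPF binds runs of G, SRSF2 is a nuclear SR protein that reads exonic enhancers, and HNRNPAB is a relative of HNRNPD. In the co-treatment controls HNRNPK stood at 117 ± 4.86 CPM per kb (SD, n = 3) and HNRNPA1 at 121 ± 16.6, so this first pair could not be ordered. HNRNPF was at 87.3 ± 10.6 in the same libraries, SRSF2 at 59.4 ± 4.67 and HNRNPAB at 67.4 ± 3.91.

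The next members, from HNRNPDL (57.7 CPM per kb) through SRSF6 (40.2), formed a gradual series in which neighbours lay within each other's range over the libraries. SRSF5, SRSF11 and SRSF8 stood lower at 27.3, 17.9 and 10.6 CPM per kb. SRSF12 was at 4.54 CPM per kb. The neuronal factors were low beside them, with PTBP2 at 2.23, NOVA2 at 2.21 (0.535 to 10.8 over the libraries) and NOVA1 at 0.841 CPM per kb. PTBP1 was at 23.7. TRA2A (22.4) and TRA2B (18.8), which activate exons rich in GAA, exceeded on average SRRM2 (14.3) and SRRM1 (5.16), the large scaffold proteins of the splicing machinery. SRRM2 ranged from 4.79 to 53.6 over the libraries, and TRA2A reached no more than 26.5, so this order did not hold in every library.

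**Figure D1:**
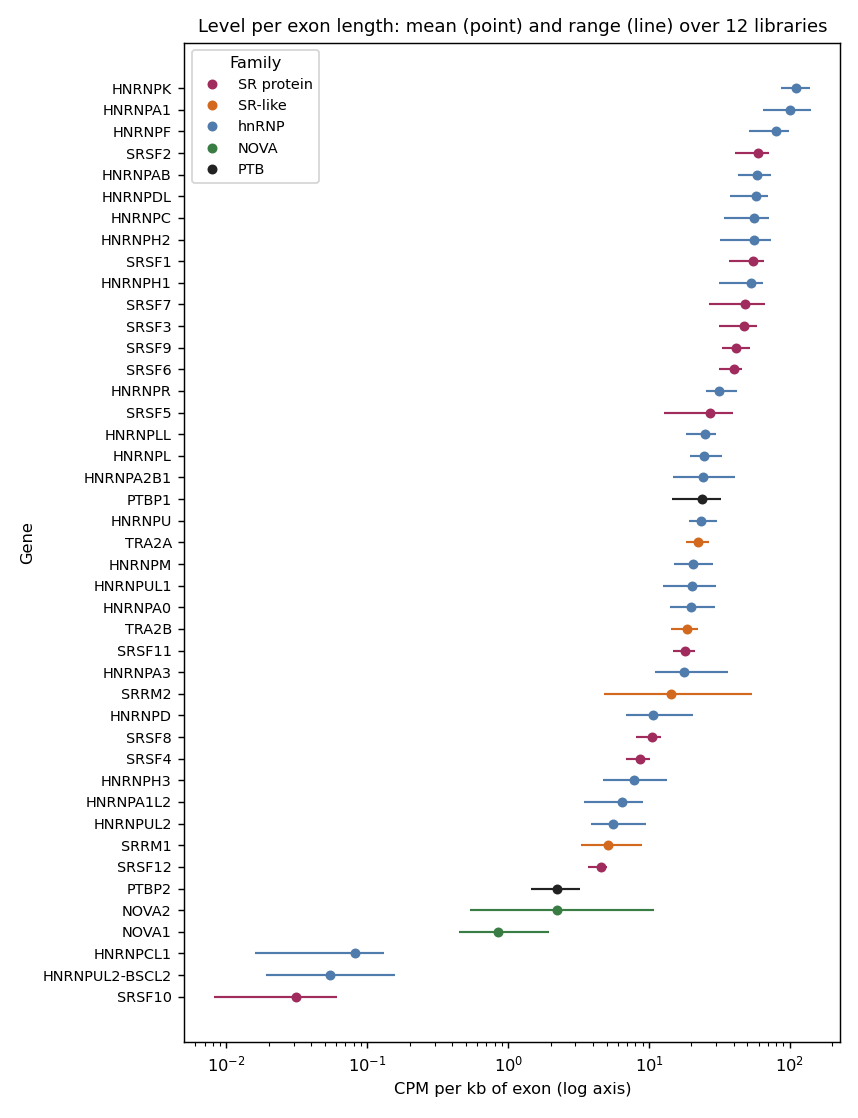
Level of each of the 43 genes in CPM per kb of annotated exon (x axis, log scale), as the mean (point) and the range (line) over 12 libraries, coloured by family. HNRNPK at 111 heads the order, and HNRNPCL1, HNRNPUL2-BSCL2 and SRSF10 lie below 0.1, where the level of SRSF10 is uncertain.

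The lowest 3 members were close to the limit of detection. SRSF10, a splicing repressor active when dephosphorylated, had 5 to 49 reads per library. HNRNPCL1, a gene of the HNRNPC-like group, had 1 to 12, and HNRNPUL2-BSCL2, a readthrough transcript, had 5 to 31. The 1 SRSF10 pseudogene in the tables held up to 128% as many reads as SRSF10. The part of the annotation used for counting in this low count was not tested, so the level of SRSF10 is uncertain. All exon bases of the readthrough are shared with HNRNPUL2 or BSCL2, and 44.3% of those of HNRNPUL2 are shared with the readthrough, so the reads of these genes could not be separated fully. For HNRNPA3, 54.8% of exon bases overlap other genes, mainly NFE2L2 on the opposite strand, and for SRSF9 43.6% overlap GATC. The libraries kept strand, but the strand setting of the counting is not given in the sources used here. The 75 HNRNPA1 pseudogenes in the tables held 10.7% to 14.5% as many reads as HNRNPA1, so its level is uncertain. HNRNPA1L2, an intronless copy of HNRNPA1, had 211 to 844 reads per library. How fully these were told apart from reads of HNRNPA1 was not tested.

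The co-treatment comparison asked whether H2O2 present during ATRA differentiation changed these genes. By the quasi-likelihood test of edgeR, 0 of the 42 members that could be tested reached an adjusted p below 0.05, the limit for a call used throughout, against 0.598% of all genes tested. At an unadjusted p below 0.05 there were 6 of 42, against 8.15% of all genes, and DESeq2 and edgeR's exact test each called 2 while limma-voom called 0. Of all genes, DESeq2 called 1.55%, the exact test 1.53% and limma-voom 0.625%. In bulk RNA such as this, a shift in the mix of cells and a change within each cell cannot be told apart. The median log2 fold change in the co-treatment, where the 7 tested noradrenergic markers had a median of -0.46 (their part in the result was not tested), was -0.12 over the members, -0.05 over the 12 SR proteins and -0.16 over 22 hnRNPs, against -0.00 over all genes. Of the 22 hnRNPs, 20 had a fold change below 0, while 16 did when libraries were scaled by their size alone. Above 0 were 11017 of all 22089 genes tested, 28 of 63 spliceosome core genes and 16 of 70 other splicing regulators. The last list had a median of -0.12, so the lean was not particular to the hnRNPs.

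The members with an unadjusted p below 0.05 were all hnRNPs with lower values under H2O2. HNRNPH3, which binds G-rich RNA and lacks a recognition motif that its paralogues have, is named here with HNRNPA2B1 because of its values. HNRNPH3 stood at 72.2, 36 and 59.2 CPM in the controls and at 28.5, 29.8 and 25.6 CPM with H2O2. The groups did not overlap, and control replicate 2 was the control nearest to the treated cultures. This gave a log2 fold change of -0.99 (SE 0.21, adjusted p = 0.0651). The adjusted p was 0.000522 in DESeq2 and 0.00141 in the exact test, and 0.0128 without control replicate 2. HNRNPA2B1, which packages nascent RNA and guides RNAs to dendrites and exosomes, was at 408, 267 and 512 CPM in the controls and 214, 247 and 219 CPM with H2O2. Its groups did not overlap either, and the log2 fold change was -0.80 (SE 0.20, adjusted p = 0.137), with an adjusted p of 0.00622 in DESeq2 and 0.0168 in the exact test. In the pre-treatment libraries HNRNPH3 gave no such split, with 49.3, 63.1 and 25.5 CPM in the controls and 34.4, 32.3 and 51.2 CPM after H2O2.

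HNRNPM, HNRNPU, HNRNPA0 and HNRNPA1 made up the rest of that group, with log2 fold changes of -0.49, -0.34, -0.36 and -0.33 and adjusted p values from 0.333 to 0.57. HNRNPU is the large scaffold hnRNP that binds chromatin, and HNRNPM and HNRNPA0 bind GU-rich and AU-rich RNA. The SR proteins lay closer to 0. Their log2 fold changes ran from -0.24 in SRSF11 to 0.17 in SRSF7, leaving aside the barely detected SRSF10 (-0.92, 95% interval -2.76 to 0.92). SRSF1, the founding member that promotes exon inclusion, had -0.04 with a 95% interval of -0.40 to 0.33, so a change of more than about that size in either direction lies outside the interval. SRSF9, SRSF12, SRSF4, SRSF8 and SRSF6 had -0.10, -0.12, -0.21, -0.06 and -0.04, and SRSF2, SRSF3 and SRSF5 had 0.04, 0.09 and 0.03.

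Among the remaining hnRNPs of the co-treatment, HNRNPLL, a repressor known from lymphocyte splicing, had the highest value (0.23), and HNRNPC, the U-binding protein that guards against the use of Alu exons, was the other one above 0 (0.06). The rest ran from -0.03 in HNRNPK, HNRNPAB and HNRNPUL2 to -0.25 in HNRNPD, and HNRNPUL2-BSCL2 had -0.76 on few reads. SRRM2 and NOVA2 were wide, at -0.26 (SE 0.35) and -0.38 (SE 0.36). That width came with control replicate 1, which held 214 CPM of SRRM2 against 74.9 and 65.7 in the other controls, and 19.6 CPM of NOVA2 against 7.42 and 6.87. The treated cultures had 82.1, 104 and 109 CPM of SRRM2 and 5.83, 8.46 and 11.6 CPM of NOVA2. Control replicate 1 also held the largest mitochondrial share, 1.51% of counts, and its part in the result was not tested.

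**Figure D2:**
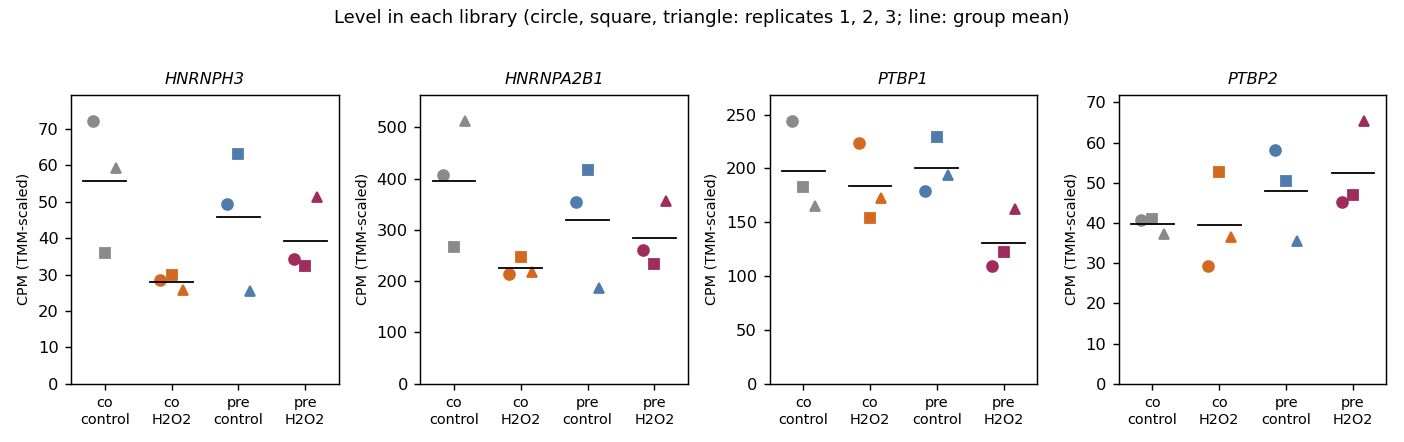
CPM (y axis, scaled over all 12 libraries) of HNRNPH3, HNRNPA2B1, PTBP1 and PTBP2 in each library of the 4 groups (x axis), with a line at each group mean. HNRNPH3 and HNRNPA2B1 lie lower in all 3 co-treated cultures than in their controls, and PTBP1 lies lower in all 3 pre-treated cultures than in theirs.

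The pre-treatment comparison asked whether H2O2 given before differentiation left a trace after 7 days of ATRA. With all 6 libraries, 0 of 43 members were called by the quasi-likelihood test, against 0.0242% of all genes, and 9 of 43 had an unadjusted p below 0.05, against 11.2%. DESeq2 and the exact test each called only SRSF5, with 2.85% and 1.14% of all genes called, and limma-voom called 0 members and 0% of all genes. The median log2 fold change was 0.16 over the members, 0.29 over the SR proteins and 0.03 over the hnRNPs, against -0.01 over all genes.

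Without control replicate 3, 23 of 43 members were called, 14 higher and 9 lower after H2O2, against 26.1% of all genes (13.2% higher and 12.8% lower). Without control replicate 2 as well, 7 were called, 1 higher and 6 lower, against 6.26% of all genes. Of the 12 SR proteins 7 rose and 0 fell, and of the 23 hnRNPs 7 rose and 4 fell. SRRM1, SRRM2, NOVA1, NOVA2 and PTBP1 fell, while TRA2A, TRA2B and PTBP2 did not pass the test. The median log2 fold change was 0.51 for the SR proteins and 0.33 for the hnRNPs, against 0.01 for all genes. With libraries scaled by size alone, which shifted the median of all genes to -0.21, 7 members were higher and 10 lower, against 23.8% of all genes, and 3 SR proteins rose and 0 fell.

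For 21 of the 23 called members, control replicates 1 and 2 lay outside the range of all the other 10 libraries, those of the co-treatment experiment included. All 14 members that rose had both of these controls below the other 10, and 7 of the 9 that fell had both above. The exceptions were HNRNPUL1 and PTBP1. These controls were the only ones in the fit, so part of this separation follows from the call. Among the members that were not called, 5 had both controls below the other 10 libraries and 15 had them neither both below nor both above. Over all genes tested, called or not, 13.6% had both controls below the other 10 libraries and 19.2% had both above. The plot of levels relative to each gene's median shows these columns apart from the rest of the pre-treatment libraries.

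**Figure D3:**
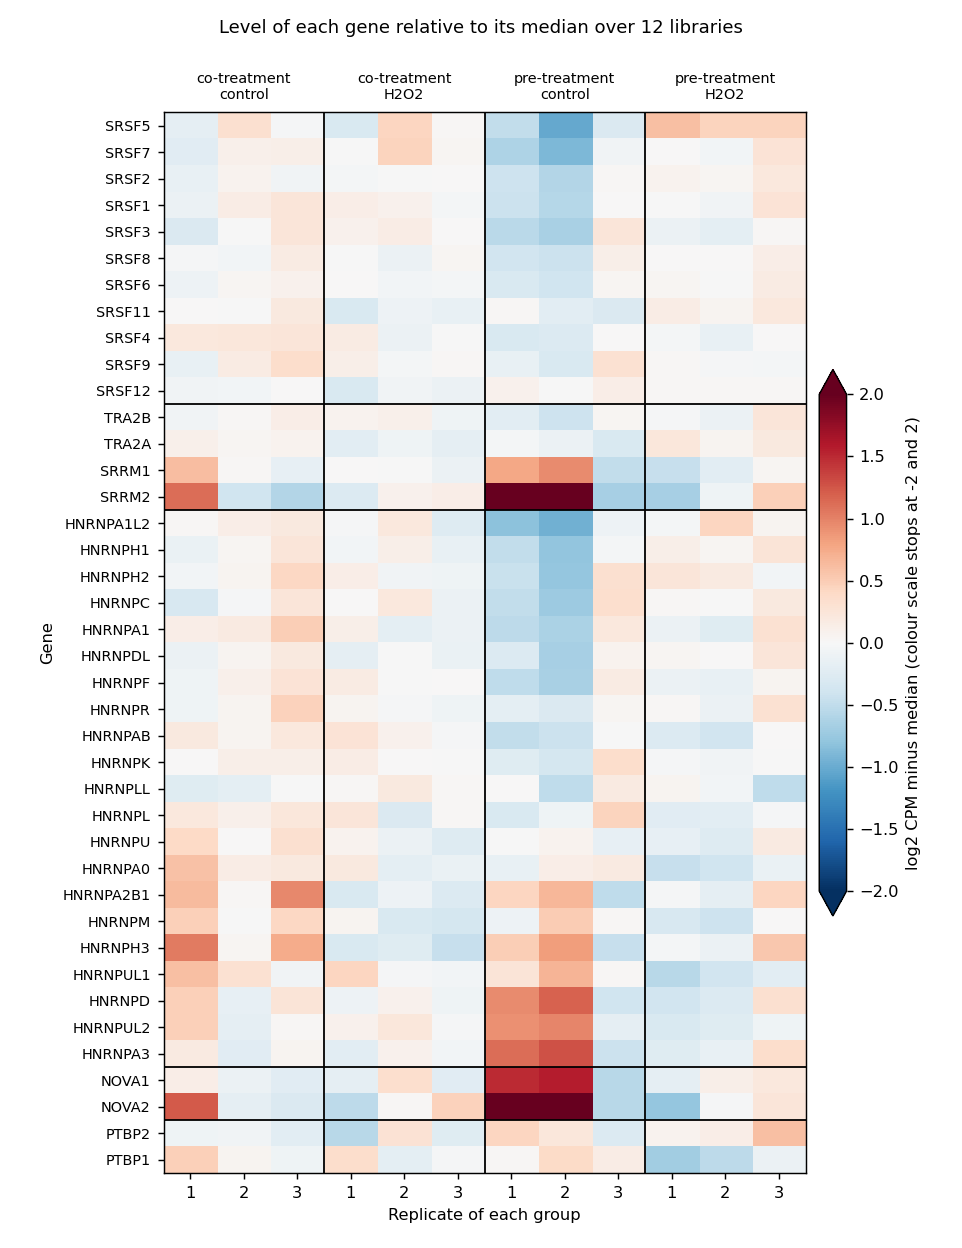
Log2 CPM of 40 members (rows) minus the gene's median over the 12 libraries (columns, 3 replicates a group), with colours capped at -2 and 2. Pre-treatment controls 1 and 2 are low for most SR proteins and high for SRRM2, NOVA1 and NOVA2, while control 3 lies nearer to the other libraries.

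The promoters of 4 members that moved in opposite directions without control replicate 3 are printed so that their sequences can be compared. RefSeq (GRCh38.p14) gives a start site for 40 of the 43 members, all but HNRNPA1, SRSF2 and TRA2A. Below are the 250 bases before that of SRSF5 (chr14:69766892-69767141, plus strand) and of SRSF7 (chr2:38751495-38751744, minus strand, the first of 2 start sites listed), which rose, and of NOVA2 (chr19:45973866-45974115, minus strand) and SRRM2 (chr16:2752388-2752637, plus strand), which fell. Each is written 5′ to 3′ in the sense of the gene. Capitals mark matches on either strand to 5 motifs of promoters. The TATA box, where the basal machinery can bind, was searched as TATAAA. The box read by the factor NF-Y was searched as CCAAT. The GC box of the Sp family was searched as GGGCGG. The half-site of the cAMP response element was searched as TGACG. The core of the ETS family of factors was searched as CCGGAA. No motif contains another.
SRSF5: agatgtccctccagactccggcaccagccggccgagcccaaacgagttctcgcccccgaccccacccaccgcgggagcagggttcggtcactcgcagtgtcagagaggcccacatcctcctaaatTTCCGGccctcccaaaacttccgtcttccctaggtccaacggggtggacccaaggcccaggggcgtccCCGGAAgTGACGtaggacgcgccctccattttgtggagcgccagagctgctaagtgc
SRSF7: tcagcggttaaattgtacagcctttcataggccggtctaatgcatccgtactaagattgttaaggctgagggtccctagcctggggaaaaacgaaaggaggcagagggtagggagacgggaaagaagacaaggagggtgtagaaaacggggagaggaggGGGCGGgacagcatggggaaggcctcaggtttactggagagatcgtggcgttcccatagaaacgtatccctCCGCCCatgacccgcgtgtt
NOVA2: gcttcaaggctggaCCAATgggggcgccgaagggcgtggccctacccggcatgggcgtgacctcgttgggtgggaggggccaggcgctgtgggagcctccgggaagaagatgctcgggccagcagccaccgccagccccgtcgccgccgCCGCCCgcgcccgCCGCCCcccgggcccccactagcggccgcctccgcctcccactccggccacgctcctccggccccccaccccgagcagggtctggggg
SRRM2: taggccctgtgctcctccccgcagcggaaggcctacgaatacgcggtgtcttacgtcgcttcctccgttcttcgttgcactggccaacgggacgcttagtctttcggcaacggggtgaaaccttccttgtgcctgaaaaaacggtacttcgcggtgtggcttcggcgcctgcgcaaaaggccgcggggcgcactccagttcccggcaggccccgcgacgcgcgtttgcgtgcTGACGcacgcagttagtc

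The SRSF5 window held 2 ETS cores, 1 of them with a cAMP half-site just after it, and no GC box, and that of SRSF7 held 2 GC boxes. NOVA2 had 2 GC boxes and a CCAAT box in a window of 78% GC, against 64.8% in SRSF5, 54.8% in SRSF7 and 63.2% in SRRM2, which had only a cAMP half-site. Over the 40 members, GC boxes were found in 27 (42.6% of 35116 promoter windows of the same length), CCAAT boxes in 20 (32%), cAMP half-sites in 16 (21.2%), ETS cores in 7 (14.5%) and TATA boxes in 5 (10.7%). A GC box was present in 8 of the 9 members that fell, in 7 of 12 that rose and in 12 of 19 that were not called. The median GC content of the windows was 69.2%, 61.6% and 66% in these groups, against 58% for all windows. A match is only a run of letters and does not show that a factor binds there.

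Among the SR proteins, SRSF5, a paralogue of SRSF4 and SRSF6, had the largest rise. It stood at 99, 68.6 and 114 CPM in the controls and at 211, 189.9 and 190.6 CPM after H2O2. All 3 treated cultures lay above all 3 controls, and control replicate 3 was the nearest control. This gave a log2 fold change of 1.09 (SE 0.22, adjusted p = 0.312) with 6 libraries and 1.31 (SE 0.17, adjusted p = 0.00216) without control replicate 3. Against that control alone, the treated mean was 0.79 higher on the log2 scale, a difference with no test.

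SRSF7, which carries a zinc knuckle and links splicing to export, stood at 131, 108 and 190.1 CPM in the controls and 199, 192 and 242 CPM after H2O2. Its groups did not overlap, but control replicate 3 nearly touched the treated range, and the treated mean exceeded it by 0.15 on the log2 scale. SRSF7 had a log2 fold change of 0.59 (SE 0.25, adjusted p = 0.433) with 6 libraries and 0.90 (SE 0.15, adjusted p = 0.0051) without that control, and the call was lost when control replicate 2 was also left out (adjusted p = 0.0569). SRSF2 was at 137, 122 and 186 CPM in the controls and 192, 188 and 211 CPM after H2O2, a treated mean 0.08 above control replicate 3 on the log2 scale. Its log2 fold change was 0.43 (SE 0.21, adjusted p = 0.483) with 6 libraries and 0.67 (SE 0.12, adjusted p = 0.00616) without control replicate 3, and the call was likewise lost without control replicate 2 (adjusted p = 0.0646).

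SRSF1, SRSF3, SRSF6 and SRSF8 also rose without control replicate 3, by 0.65, 0.57, 0.49 and 0.53 on the log2 scale. With 6 libraries their values were 0.41, 0.18, 0.30 and 0.28, with adjusted p values from 0.526 to 0.809. SRSF3 is the smallest SR protein and takes part in mRNA export, SRSF6 binds purine-rich enhancers, and SRSF8 derives from a retrotransposed copy of SRSF2. For these 4 genes the treated mean differed from control replicate 3 by 0.07, -0.34, 0.03 and -0.07, so the rise was one against control replicates 1 and 2. SRSF9, the closest relative of SRSF1, and SRSF4, SRSF11 and SRSF12 were not called, with log2 fold changes of 0.28, 0.30, 0.31 and 0.05, and SRSF10 had -0.01 on few reads.

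The SR-like scaffolds went the other way. SRRM2, which sits in nuclear speckles and binds the active spliceosome, stood at 521, 696 and 62.1 CPM in the controls and at 62.4, 93.4 and 138 CPM after H2O2. Control replicates 1 and 2 were far above every other library, and control replicate 3 was just below the treated range. The log2 fold change was -2.08 (SE 0.72, adjusted p = 0.349) with 6 libraries and -2.56 (SE 0.29, adjusted p = 0.00127) without control replicate 3, against which the treated mean was 0.66 higher. SRRM1 repeated this at lower contrast, with 63.7, 71.2 and 26.5 CPM in the controls and 27.1, 32 and 38 CPM after H2O2. Its log2 fold change was -0.70 (SE 0.33, adjusted p = 0.479) with 6 libraries and -0.99 (SE 0.15, adjusted p = 0.00414) without control replicate 3.

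TRA2A and TRA2B were not called in either fit. TRA2A was at 76.9, 73.4 and 64.4 CPM in the controls and 93.2, 82.1 and 90.9 CPM after H2O2, all above the controls, with a log2 fold change of 0.34 (SE 0.15, adjusted p = 0.451) over 6 libraries and 0.31 (SE 0.11, adjusted p = 0.0741) without control replicate 3. TRA2B was at 214, 186 and 254 CPM in the controls and 243, 228 and 293 CPM after H2O2, and here the groups overlapped, with log2 fold changes of 0.25 and 0.42. In the co-treatment TRA2A was at 85.3, 81.8 and 82.8 CPM against 68.2, 74.9 and 70.1 CPM, and TRA2B at 238, 254 and 272 CPM against 260.1, 267 and 234 CPM.

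**Figure D4:**
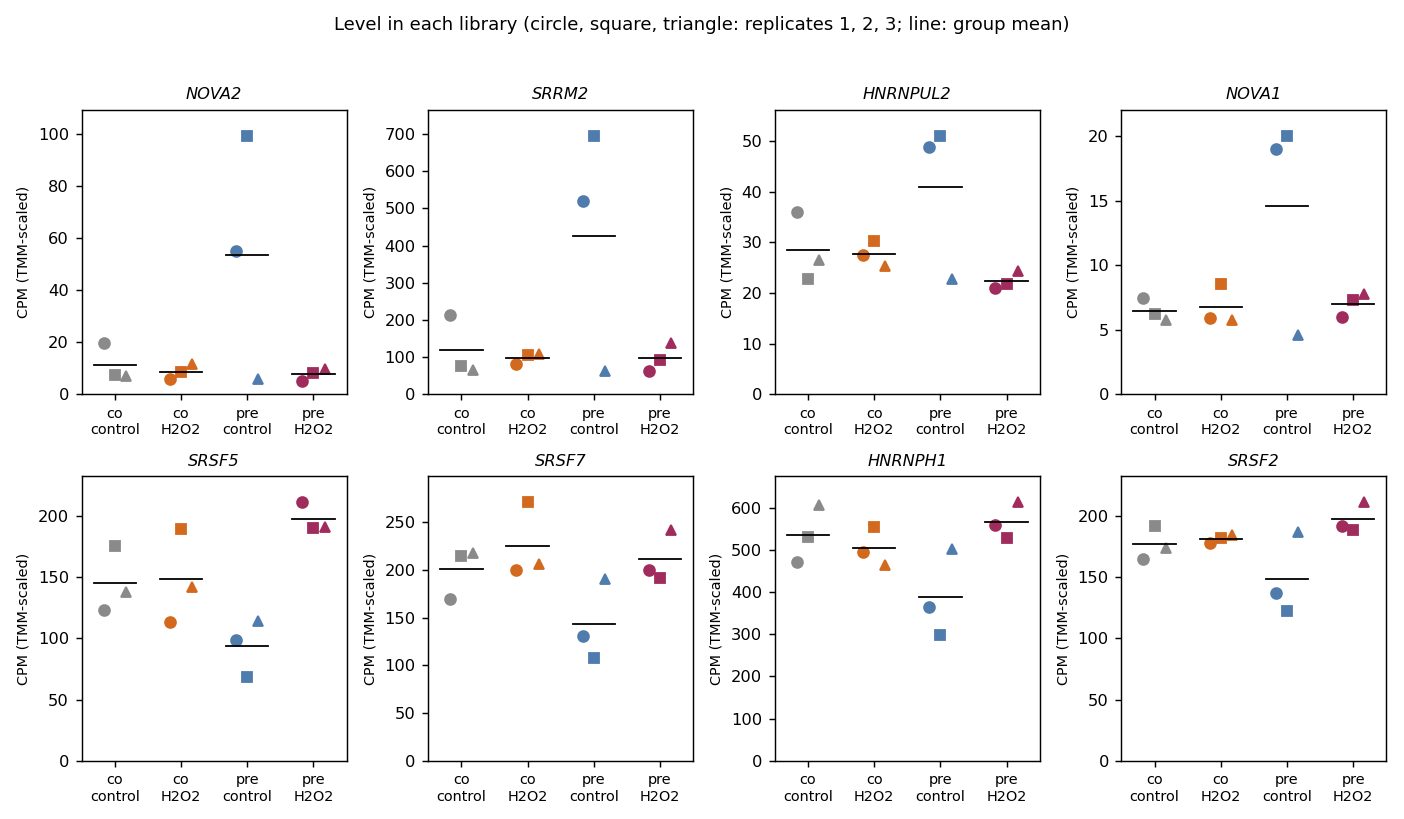
CPM (y axis, scaled over all 12 libraries) of 8 members in each library of the 4 groups (x axis), with a line at each group mean. For NOVA2, SRRM2, HNRNPUL2 and NOVA1 pre-treatment controls 1 and 2 lie above the other 10 libraries, and for SRSF5, SRSF7, HNRNPH1 and SRSF2 they lie below them.

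The hnRNPs divided into members that rose and members that fell without control replicate 3. HNRNPH1, which binds G runs, stood at 366, 298 and 502 CPM in the controls and 560, 528 and 614 CPM after H2O2. The treated cultures were all higher, with control replicate 3 close beneath them. HNRNPH1 had a log2 fold change of 0.57 (SE 0.24, adjusted p = 0.429) with 6 libraries and 0.84 (SE 0.14, adjusted p = 0.00515) without control replicate 3, and the call was lost when control replicate 2 was also left out (adjusted p = 0.0536). Its paralogues HNRNPH2 and HNRNPF rose by 0.80 and 0.58, HNRNPC by 0.75, HNRNPDL, a relative of HNRNPD, by 0.63, HNRNPA1 by 0.65 and HNRNPA1L2, an intronless copy of HNRNPA1, by 1.12. In the same order the values with 6 libraries were 0.37, 0.24, 0.31, 0.38, 0.29 and 0.76, with adjusted p values from 0.383 to 0.728. HNRNPA1 was at 466, 435 and 776 CPM in the controls and 621, 568 and 828 CPM after H2O2, so that control replicate 3 fell within the treated range. HNRNPF was at 188, 169 and 297 CPM against 246, 241 and 277 CPM, and control replicate 3 was above all treated cultures. HNRNPC likewise had 522 CPM in control replicate 3, against 422, 413 and 476 CPM after H2O2.

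The hnRNPs that fell were HNRNPUL2, HNRNPA3, HNRNPD and HNRNPUL1. HNRNPUL2, a relative of HNRNPU with a part in the DNA damage response, stood at 48.9, 51.1 and 22.8 CPM in the controls and 21, 21.9 and 24.4 CPM after H2O2. Control replicate 3 lay inside the treated range. The log2 fold change was -0.83 (SE 0.28, adjusted p = 0.338) with 6 libraries and -1.08 (SE 0.13, adjusted p = 0.00149) without control replicate 3. HNRNPA3, an A/B-type hnRNP, was at 213, 238 and 72.7 CPM in the controls and 83, 87.9 and 125 CPM after H2O2, and fell by 1.12 on the log2 scale without control replicate 3, with -0.78 (adjusted p = 0.497) over 6 libraries. HNRNPD, also known as AUF1, which marks AU-rich messages for decay, fell by 1.07 without that control and had -0.76 (adjusted p = 0.487) with it. Its level in control replicate 3, 48.2 CPM, was just below the treated cultures (48.5, 52.5 and 78.8 CPM). HNRNPUL1 was at 148, 199 and 126 CPM against 84, 94.5 and 106 CPM, so that all treated cultures were below all 3 controls, and it fell by 0.80 without control replicate 3 and had -0.70 (SE 0.20, adjusted p = 0.320) with it.

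The other 12 hnRNPs did not pass the test without control replicate 3. HNRNPK, HNRNPAB and HNRNPR had 0.33, 0.33 and 0.39, HNRNPL, which binds CA repeats, and HNRNPLL 0.10 and 0.15, HNRNPU -0.02, and HNRNPA0, HNRNPA2B1, HNRNPM and HNRNPH3 between -0.26 and -0.44. HNRNPK was at 532, 492 and 797 CPM in the controls and 616, 595 and 622 CPM after H2O2, and HNRNPAB at 91.3, 95.3 and 127 CPM against 107, 98.1 and 129 CPM. HNRNPCL1 and HNRNPUL2-BSCL2 had intervals of several log2 units on their few reads.

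The neuronal factors NOVA1 and NOVA2, which bind YCAY motifs, showed the widest range of the readily detected members together with SRRM2. NOVA2 stood at 55.2, 99.3 and 5.71 CPM in the controls and at 4.91, 8.27 and 9.89 CPM after H2O2. Control replicates 1 and 2 exceeded every other library, while control replicate 3 fell within the treated range. The log2 fold change was -2.75 (SE 0.81, adjusted p = 0.320) with 6 libraries and -3.26 (SE 0.32, adjusted p = 0.000985) without control replicate 3, against which the treated mean was 0.43 higher. NOVA1 was at 19, 20 and 4.6 CPM in the controls and 5.96, 7.28 and 7.78 CPM after H2O2. Its log2 fold change was -1.01 (SE 0.47, adjusted p = 0.466) with 6 libraries and -1.41 (SE 0.17, adjusted p = 0.00167) without control replicate 3. In the co-treatment NOVA1 was at 7.42, 6.25 and 5.76 CPM in the controls and 5.93, 8.51 and 5.75 CPM with H2O2.

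PTBP1, the general repressor of neuronal exons, stood at 179, 229 and 194 CPM in the pre-treatment controls and at 109, 122 and 162 CPM after H2O2. The groups did not overlap, and control replicate 3 lay between the other controls. The log2 fold change was -0.59 (SE 0.20, adjusted p = 0.347) with 6 libraries and -0.57 (SE 0.18, adjusted p = 0.0494) without control replicate 3. The latter call was lost when any of controls 1 and 2 and treated replicates 1 and 2 was left out as well. PTBP2 was at 58.1, 50.4 and 35.5 CPM against 45.2, 47 and 65.3 CPM, with overlapping groups. In the co-treatment PTBP1 was at 244, 183 and 165 CPM against 224, 154 and 173 CPM, and PTBP2 at 40.8, 41 and 37.2 CPM against 29.3, 52.7 and 36.5 CPM.

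The ratio of PTBP2 to PTBP1 reads needs no scaling between libraries. In the pre-treatment it was 0.324, 0.22 and 0.183 in the controls and 0.415, 0.385 and 0.403 after H2O2, higher in all 3 treated cultures. The mean log2 ratio was -2.09 ± 0.42 (SD, n = 3) and -1.32 ± 0.06, a difference of 0.77 with an exact two-sided permutation p of 0.1, the smallest that 3 against 3 allow. In the co-treatment the ratio was 0.167, 0.224 and 0.226 in the controls and 0.131, 0.343 and 0.212 with H2O2, with overlapping groups. The mean log2 ratio was -2.29 ± 0.25 (n = 3) against -2.24 ± 0.70, a difference of 0.06 (exact permutation p = 1).

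**Figure D5:**
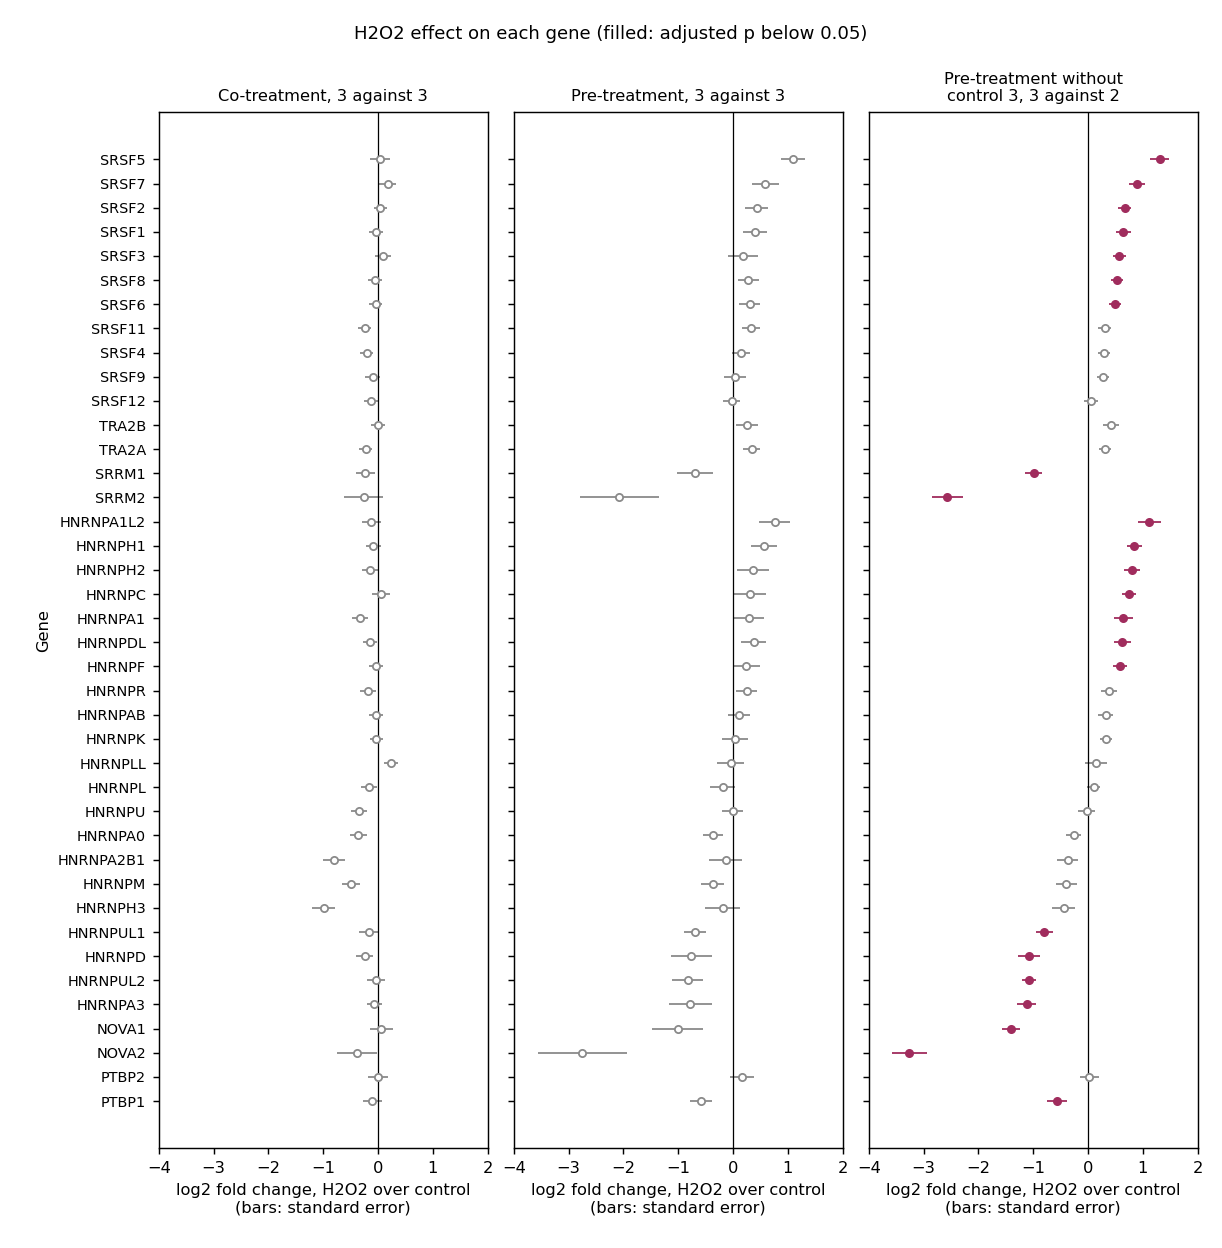
Log2 fold change of H2O2 over control (x axis; bars are standard errors) for 40 members (y axis) in the co-treatment, the pre-treatment with 6 libraries and the pre-treatment without control 3, with filled points where the adjusted p is below 0.05. None is filled in the first and second panels, and 23 are filled in the third.

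Whether the response to H2O2 differed between the experiments was tested directly, as the pre-treatment effect minus the co-treatment effect. With 12 libraries 0 of 42 members were called, against 0.0287% of all genes, and 7 of 42 had an unadjusted p below 0.05, against 8.94%. DESeq2 and limma-voom also called 0, with 0.434% and 0.00819% of all genes. SRSF5 had a difference of 1.04 (SE 0.31, adjusted p = 0.462) and TRA2A one of 0.54 (SE 0.17, adjusted p = 0.503). SRSF11 had a like difference of 0.55 (SE 0.18, adjusted p = 0.511). In both TRA2A and SRSF11 the treated cultures lay below all controls in the co-treatment and above all controls in the pre-treatment. The share of all genes with this pattern was not counted.

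Without pre-treatment control replicate 3, 12 of 42 members differed, 7 with a more positive and 5 with a more negative effect in the pre-treatment, against 8.02% of all genes (3.32% and 4.7%). The 7 were HNRNPA1L2 (1.19), SRSF5 (1.22), HNRNPA1 (0.93), HNRNPH2 (0.90), HNRNPH1 (0.87), HNRNPDL (0.72) and SRSF2 (0.58). The 5 were NOVA2 (-2.93), SRRM2 (-2.36), NOVA1 (-1.52), HNRNPA3 and HNRNPUL2, with adjusted p values from 0.00947 to 0.0416 over the 12. With libraries scaled by size alone the split was 3 and 7 (8.23% of all genes called), and with upper-quartile scaling 5 and 6 (7.7%). The count also moved with single libraries. In the pre-treatment it fell to 1 without control replicate 2 (1.31% of all genes) and to 5 without treated replicate 1 (2.68%). In the co-treatment it fell to 4 without treated replicate 3 (2.86%) and to 6 without control replicate 2 (2.49%), and rose to 24 without control replicate 1 (17.6%).

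HNRNPA1L2 was at 9.13, 9.87 and 10.3 CPM in the co-treatment controls and 8.88, 10.4 and 7.54 CPM with H2O2, and at 5.12, 4.62 and 8.36 CPM in the pre-treatment controls and 8.74, 12.1 and 9.39 CPM after H2O2. HNRNPH2 was at 122, 130.2 and 168 CPM against 139, 120 and 119 CPM in the co-treatment, and at 92.9, 73.4 and 158 CPM against 149, 143 and 121 CPM in the pre-treatment. Both genes were lowest in pre-treatment control replicates 1 and 2. Some 15.8% of the exon bases of HNRNPH2 are shared with a readthrough transcript from RPL36A on the same strand.

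The other genes of the splicing machinery were counted in 3 lists of known genes. None of the genes in the lists was called in the co-treatment or in the pre-treatment with 6 libraries. Few genes were called in these fits at all, 0.598% and 0.0242% of those tested. Without control replicate 3, 33 of 64 spliceosome core genes rose and 4 fell, with a median log2 fold change of 0.43. SNRPD2, an Sm protein of the snRNPs, rose by 1.01 and SF3B5, a subunit of the U2 snRNP, by 0.77, while PRPF8, the scaffold at the catalytic centre, fell by 1.55 and SNRNP200, the helicase that unwinds U4 from U6, fell by 0.79. Of 14 SR protein kinases and phosphatases 5 rose and 0 fell, among them CLK1 (0.63), which phosphorylates SR proteins, and PPP1R8 (0.65), which targets protein phosphatase 1 in the nucleus. Of 72 other splicing regulators 21 rose and 16 fell. LUC7L3 and LUC7L, which bind the U1 snRNP, rose by 1.28 and 0.82, and SON, a speckle protein, and RBM20, known from titin splicing, fell by 1.33 and 1.22. The share of all genes called in that fit was 26.1%, and the same control libraries underlie these values.

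In the test of the difference without control replicate 3, 8 of 64 spliceosome core genes differed with a more positive and 1 with a more negative pre-treatment effect, as did 13 and 6 of 72 other regulators and 0 of 14 kinases and phosphatases. Of all genes, 8.02% differed, 3.32% with a more positive and 4.7% with a more negative effect. SNRPD1 (1.02) and SYF2 (0.97) led the core genes, and PRPF8 had -1.47. PNN, a speckle protein, had 1.22 and ZRANB2 0.98, while PCBP2, a C-binding relative of HNRNPK, had -1.71 and SON -1.46.

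Transcript properties are given by the calls without control replicate 3, with no test between the groups, whose ranges overlapped. Over the longest coding transcript, the median GC content was 44% in the 14 that rose (38.7% to 51.6%), 52.2% in the 9 that fell (37.6% to 59.4%) and 41% in 17 that were not called. The median length was 3894, 5214 and 3589 bases. Across 40 members with at least 100 reads in some library, the log2 fold change had a Pearson r of -0.34 (Spearman rho -0.11) with GC content and of -0.48 (rho -0.35) with length. In the co-treatment the same values were -0.08 (-0.22) and -0.02 (-0.01). These points share the same libraries and are given as a description, and the part of GC content and length in the result was not tested.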

How the data were processed

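Raw gene counts were deposited for each of the 12 libraries, and per the labels the authors trimmed reads with cutadapt 2.10, mapped them to hg19 with HISAT2 2.1.0 and counted them per gene with HTSeq 0.7.2, without normalization. RNA had been depleted of ribosomal RNA, so unspliced transcripts are present. The closing entries for reads not assigned to a gene, 40% to 59.9% of all entries, were left out. Columns of the authors' own comparisons (fold changes and p-values) were not used.

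Counts were tested with edgeR 4.0.16 (quasi-likelihood test, TMM factors, Benjamini-Hochberg adjustment over all genes tested) in R 4.3.3. Genes entered where at least 3 libraries (2 without pre-treatment control 3) reached the CPM of 5 counts in the smallest library. Displayed CPM used TMM factors over all 12 libraries. Positions, exon lengths and overlaps came from GENCODE annotation lifted to hg19, which may differ from that used for counting. DESeq2 1.42.0, limma 3.58.1, other scalings and filters, and leaving out each library were alternatives. The analysis was tested on simulated data with known changes. No 2 libraries of a group agreed within sampling noise. Intervals cover the spread between these libraries.

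The members and gene lists were chosen with earlier results of these data known. Named with all libraries were the SR-like, NOVA and PTBP genes, the 4 called members with the smallest adjusted p in each direction of each fit, the 5 highest per kb and the barely detected ones. Of each gene list, the 2 called genes with the smallest adjusted p in each direction were named. HNRNPH3 and HNRNPA2B1, and values printed for further members, were chosen after the values were seen.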

Additional observations from a re-analysis of the deposited data

Results flagged for a closer look

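By the interaction test without pre-treatment control replicate 3, a difference between the experiments was called in 12 of 42 members. Of all genes, 8.02% were called. The differences (pre-treatment minus co-treatment, log2) were -2.93 for NOVA2, -2.357 for SRRM2, -1.524 for NOVA1, -1.105 for HNRNPA3 and -1.105 for HNRNPUL2. They were 1.22 for SRSF5, 1.185 for HNRNPA1L2, 0.925 for HNRNPA1, 0.895 for HNRNPH2, 0.874 for HNRNPH1, 0.719 for HNRNPDL and 0.579 for SRSF2. With all 12 libraries none of them passed the test. In all 12 genes pre-treatment control replicates 1 and 2 lay outside the range of the other 10 libraries. Over all genes, called or not, both were below in 13.6% and both above in 19.2%. They were the only pre-treatment controls in this fit, so part of this separation follows from the call. Their library properties and the absence of H2O2 cannot be told apart, and the part of these libraries in the result was not tested.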

How the results depend on the processing

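Of 106 alternative values of the main counts and ratios, 84 stayed within 1.5 times the count, or within 1 SD between replicates for a ratio. No called result reversed, but no alternative had pre-treatment control replicate 3 as its only pre-treatment control. Against that control alone, with no test, the treated mean was higher for NOVA2 (log2 difference 0.43), SRRM2 (0.66), NOVA1 (0.61), HNRNPA3 (0.44), HNRNPD (0.315) and SRRM1 (0.29), which were called lower. It was lower for HNRNPA1 (-0.21), HNRNPC (-0.26), HNRNPF (-0.22), HNRNPH2 (-0.20), SRSF3 (-0.34) and SRSF8 (-0.07), which were called higher. For HNRNPUL1 (-0.405), PTBP1 (-0.57) and HNRNPUL2 (-0.03), called lower, it was lower as well. The other called members, all called higher, had a treated mean above that control. Shares in brackets are those of all genes called. In the co-treatment, where no member was called, DESeq2 and the exact test each called 2 members (1.55% and 1.53%), leaving out small structured and mitochondrial RNA 1 (0.839%), and testing without a filter 3 (1.44%). Leaving out single replicates gave 0 to 2, with 2 without control replicate 2 (0.222%). In the pre-treatment with 6 libraries, also with no call, DESeq2 called 1 (2.85%), the exact test 1 (1.14%) and no filter 3 (0.772%), and leaving out single replicates gave 0 to 23, with 23 without control replicate 3 (26.6%). Without that control, requiring an absolute log2 fold change above 1 as well left 8 of the 23 calls (11.2%), and leaving out single replicates gave 7 to 27, with 7 without control replicate 2 (6.26%). The difference of the responses over 12 libraries gave 3 calls without a filter (0.639%) and 0 to 12 when single replicates were left out, with 12 without pre-treatment control replicate 3 (8.46%). Without pre-treatment control replicate 3 it gave 19 with DESeq2 (13.6%), 19 without a filter (9.09%) and 1 to 24 when single replicates were left out (1.31% and 17.6%). The difference in the PTBP2 to PTBP1 log2 ratio ranged from -0.29 to 0.40 in the co-treatment and from 0.58 to 1.00 in the pre-treatment when single replicates were left out, so the sign in the co-treatment, which was not called, turned without control replicate 1 (-0.09) and without treated replicate 2 (-0.29). Where leaving out a library left 1 or 2 controls, the spread was taken from the remaining libraries.

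Samples with the same replicate number did not deviate together (correlations of -0.06, -0.07 and -0.07 in the co-treatment and -0.23, 0.03 and -0.28 in the pre-treatment). No pairing by number was therefore assumed, though so few libraries a group cannot exclude one. With a replicate block 1 member was called in the co-treatment (0.819%), and 35 (22 higher and 13 lower) in the pre-treatment without control replicate 3, where 40.8% of all genes were called.

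Of 482 alternative values for single members, 426 kept their direction and their side of the limit, 36 lost the call, 20 gained it and 0 reversed. None of these alternatives used pre-treatment control replicate 3 as the only pre-treatment control, so they do not bear on the direction against it. SRSF10, HNRNPCL1 and HNRNPUL2-BSCL2 had at most 49 reads per library. Among the other members the lowest count in any library was 164, for NOVA2. The part of depth in the results was not tested.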
